A study of Mus musculus with 6 samples.

Results

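Described here are 32 genes of clotting, anticoagulation and fibrinolysis, of 20914 genes listed in the count table. They were grouped by role, as 2 genes of initiation, 7 contact and intrinsic factors, 3 genes of the common pathway, 4 of fibrin formation, 7 anticoagulants, 7 genes of fibrinolysis and its regulators and 2 of the vitamin K cycle. The list was chosen by function, but the question asked of it was chosen on a measured value, the lower level of Pros1 in DOX, and was whether its partners follow. The DOX against PBS difference of Pros1 is therefore given as a description without a test. All 32 genes passed the filter on low counts, as did 13725 genes in all.

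Blood clotting runs as a chain of proteases made mostly in the liver, in which tissue factor and factor VII, or the contact factors, lead through factor X and factor V to thrombin, which turns fibrinogen into fibrin. Antithrombin, heparin cofactor II, protein Z with its inhibitor, tissue factor pathway inhibitor and the protein C pathway restrain the chain. Plasmin, made from plasminogen, dissolves the clot. Protein S, the product of Pros1, is a cofactor of activated protein C in the inactivation of factors Va and VIIIa and of tissue factor pathway inhibitor against factor Xa, and in human plasma part of it circulates bound to the beta chain of the complement regulator C4b-binding protein, a chain that mice lack. Several of these proteins, protein S and protein C among them, work only after vitamin K dependent carboxylation of glutamate residues by the enzyme encoded by Ggcx.

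The study sequenced liver RNA of mice in 6 libraries, of which PBS and DOX had 3 each. Every library came from BucheKI/KI-Hep mice, with CKI and Alb-Cre in the title (Alb-Cre is a Cre recombinase driven by the albumin promoter, which is active in hepatocytes), and had BDL treatment, which in liver work usually means bile duct ligation. The labels do not explain DOX, S10D or CKI, give no age, sex or dose, and do not tie a library to its own animal. P-values here therefore measure only library-to-library spread, possibly technical. No group here lacked BDL or the knock-in. The series' design text names overexpression of butyrylcholinesterase (Bche) in hepatocytes, and its title concerns stellate cell activation.

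Total counts were 32826493 to 41102844 per library. Levels below are TMM-scaled CPM (counts scaled to one fixed library total after a correction for composition), and FPKM, counts per length and depth, where genes are compared with each other. Bche stood at 193 to 245 CPM in PBS and 448 to 969 CPM in DOX. The 12 hepatocyte markers were all present, with a summed level of 76784 to 96764 CPM in PBS and 96872 to 153200 CPM in DOX. Most of that sum was Alb, at 45625 to 57734 CPM in PBS and 60634 to 113500 CPM in DOX. Of the 12 markers, 6 had a positive and 6 a negative log2 fold change, with a median of 0.02. In bulk liver, fewer cells of a type and less RNA per cell cannot be told apart.

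Pros1 was picked for its lower level in DOX, and the 3 fibrinogen chain genes went up and down together across libraries. The sequences before the start sites of these genes are shown for that reason. They are the 250 bases before the RefSeq start in GRCm38.p6, or for Fga the 173 of them that lie before the GENCODE start as well, given on the strand of the gene, at chr16:62854057-62854306 (plus strand, Pros1), chr3:83025903-83026075 (plus strand, Fga), chr3:83049864-83050113 (minus strand, Fgb) and chr3:83007474-83007723 (plus strand, Fgg). Capitals mark matches, on either strand, to 4 short motifs, which did not overlap each other in these windows.
Pros1: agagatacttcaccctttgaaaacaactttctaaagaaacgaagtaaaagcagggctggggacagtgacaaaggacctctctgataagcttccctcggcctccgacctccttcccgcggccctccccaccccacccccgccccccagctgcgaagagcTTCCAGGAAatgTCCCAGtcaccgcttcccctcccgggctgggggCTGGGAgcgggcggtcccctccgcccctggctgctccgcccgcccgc
Fga: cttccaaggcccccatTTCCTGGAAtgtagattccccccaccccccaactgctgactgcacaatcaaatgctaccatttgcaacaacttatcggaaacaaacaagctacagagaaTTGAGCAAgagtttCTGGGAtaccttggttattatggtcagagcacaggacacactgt
Fgb: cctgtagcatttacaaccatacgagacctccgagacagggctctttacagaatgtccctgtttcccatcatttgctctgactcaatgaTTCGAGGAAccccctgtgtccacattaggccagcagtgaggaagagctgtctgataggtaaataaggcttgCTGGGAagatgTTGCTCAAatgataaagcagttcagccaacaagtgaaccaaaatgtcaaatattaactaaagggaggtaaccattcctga
Fgg: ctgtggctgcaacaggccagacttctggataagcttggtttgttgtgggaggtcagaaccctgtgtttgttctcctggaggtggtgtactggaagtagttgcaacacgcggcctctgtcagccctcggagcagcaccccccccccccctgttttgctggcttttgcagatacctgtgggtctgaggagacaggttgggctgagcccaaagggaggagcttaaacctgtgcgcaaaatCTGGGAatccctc

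The motifs searched were CAAAGTNCA (HNF4 type), TTGCNNAA (C/EBP type), TTCNNNGAA (STAT type) and CTGGGA (IL-6 response type). Entries were found for 27 of the 32 genes, and Kng1, Proc, Serpina10, Plg and Plat had none. The Fga and Fgb windows each held the C/EBP, STAT and IL-6 type letters, the Fgg window held only CTGGGA, and the Pros1 window held TTCNNNGAA once and CTGGGA on both strands. Of all 32851 windows of this length, 9.56% held TTGCNNAA, against 9 of the 27 clotting genes. TTCNNNGAA was in 7.02% of all windows and in 4 of the 27, CTGGGA in 27.0% and 9, and CAAAGTNCA in 1.19% and 1, which was F9. All windows were counted singly, while a gene counted if any of its windows held the motif, so these shares are not on the same base. The matches are of letters in a short window and were not tested for binding.

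Pros1, picked for it, was lower in DOX. In edgeR neither Pros1 nor any of the 11 genes listed as partners of its product passed the adjusted threshold. Of all genes tested, 0.0291% did, so the count of 0 says little about the partners. Their values are given one by one, except for Procr, of which only the sign is given. Pros1 (chromosome 16, 62854307 to 62929346 in GRCm38, protein coding) stood at 194.7, 199.0 and 197.2 CPM in PBS and at 121.7, 130.4 and 130.8 CPM in DOX. The 3 DOX libraries lay close together below the 3 PBS libraries, with group means of 197.0 ± 2.13 and 127.6 ± 5.13 CPM (SD, n = 3 each). Its fitted log2 fold change was -0.63 (SE 0.09), or 0.648-fold. It was negative in each of the 16 alternative settings, between -0.76 and -0.59. These refits reuse the counts on which Pros1 was picked, so the kept sign is no support.

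Proc, which encodes protein C, stood at 388.7, 389.6 and 388.8 CPM in PBS and at 406.7, 401.9 and 403.0 CPM in DOX. It had the narrowest range of the 32 genes, a highest library only 1.05 times the lowest, and the DOX libraries lay just above the PBS libraries. The log2 fold change was 0.05 (SE 0.10, 95% interval -0.18 to 0.28, edgeR adjusted p = 0.885), and with scaling by library size only the groups overlapped. Within each library, where scaling cancels, there were 0.501, 0.511 and 0.507 Pros1 counts per Proc count in PBS and 0.299, 0.325 and 0.324 in DOX. Since Proc moved little, this ratio restates the Pros1 level and is no separate support. Per length, Proc stood 2.98 times as high as Pros1 in PBS and 4.78 times in DOX (means of the FPKM ratios).

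F5, the gene of factor V, which is both a target of activated protein C and a cofactor with protein S, stood at 426.8, 403.0 and 446.0 CPM in PBS and 513.4, 418.9 and 405.9 CPM in DOX. DOX replicate 1 was highest, and the groups overlapped (log2 fold change 0.07, SE 0.13, interval -0.23 to 0.36). C4bp, which encodes the alpha chain of C4b-binding protein and is not one of the 32, is listed as a partner from the human complex. It stood at 874.3, 918.2 and 719.4 CPM in PBS and 1015, 782.0 and 762.1 CPM in DOX. These ranges overlapped too (log2 fold change 0.03, SE 0.16, interval -0.35 to 0.40).

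Pros1 counts per F5 count were 0.442 to 0.494 in PBS and 0.237 to 0.322 in DOX, and per C4bp count 0.217 to 0.274 and 0.120 to 0.172. These ratios carry the selected Pros1 value too and are given as a description. The remaining genes on the list of protein S partners were Procr and Thbd, which encode the receptors that support protein C activation, Gas6, which encodes a protein related to protein S, and the receptor genes Mertk, Axl and Tyro3, through which protein S and Gas6 signal. The smallest edgeR adjusted p of the 11 partners was 0.509. Of them, 9 had a positive log2 fold change under TMM scaling, and with library size only Proc, F5, C4bp, Procr and Gas6 turned negative. Thbd, the thrombomodulin gene, had the smallest p, with 10.5, 10.3 and 13.7 CPM in PBS and 18.4, 10.3 and 22.5 CPM in DOX (log2 fold change 0.57 with SE 0.26 and adjusted p = 0.509). Tfpi and F8, described below, came next by p. The receptor genes followed with log2 fold changes of 0.16 for Axl (SE 0.22), -0.06 for Mertk (SE 0.10) and -0.24 for Tyro3 (SE 0.55), which had 6 to 21 counts per library. Tyro3 had the lowest fitted value of the 11, with an interval too wide at this depth to show a difference. Gas6 stood at a log2 fold change of 0.05 (SE 0.29) and spread widely in DOX, from 64.3 to 160.8 CPM.

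**Figure D1:**
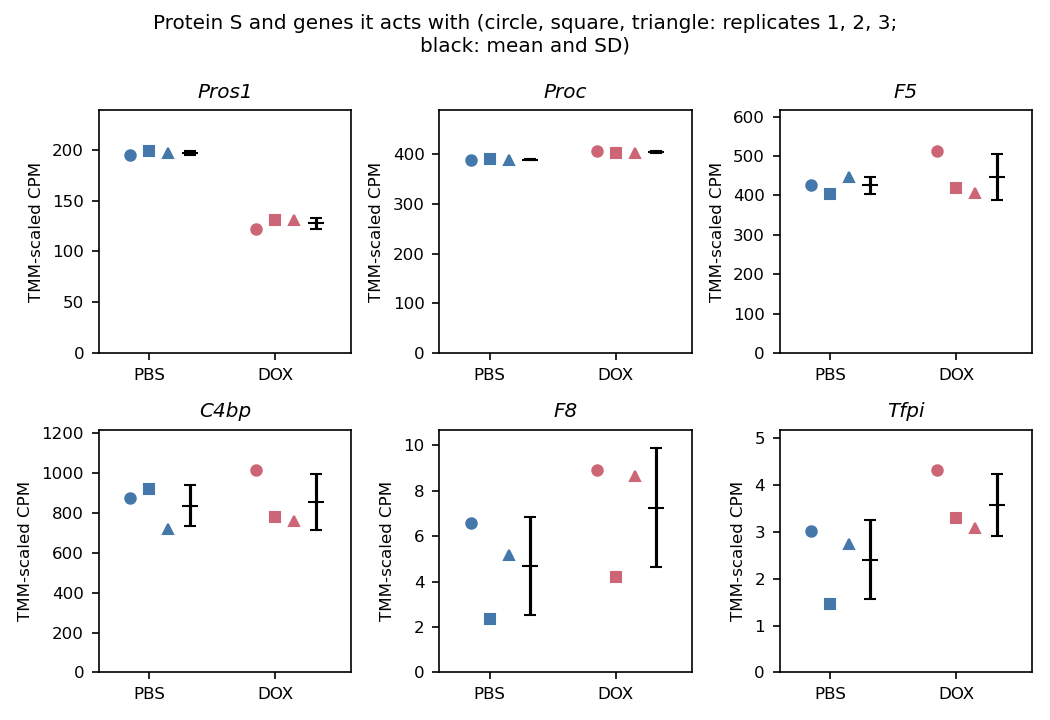
TMM-scaled CPM of Pros1, Proc, F5, C4bp, F8 and Tfpi in the 3 PBS (blue) and 3 DOX (red) libraries, with a circle, square and triangle for replicates 1, 2 and 3 and the mean and SD in black; each axis starts at 0. Pros1 falls to 121.7 to 130.8 CPM in DOX while Proc lies just above PBS and F5 and C4bp overlap with it, and F8 and Tfpi are lowest in PBS replicate 2.

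Across the whole list the differences were small. Of the 32 genes, 0 passed the threshold of an adjusted p of 0.05 in edgeR, where 0.0291% of all genes tested did. With calls this rare, the counts of 0 given below for parts of the list say little. At an unadjusted p under 0.05 there were, with Pros1 left out, 2 of the other 31, Klkb1 and Vkorc1, where 9.9% of all genes stood. DESeq2 called 1, which was Pros1, against 1.19% of all genes, and nothing is read from that call since Pros1 was picked on this contrast. The smallest adjusted p of the other 31 was 0.496. The median log2 fold change was 0.072 over the 32 genes and -0.015 over all genes, and it turned to -0.060 over the 32 when scaled by library size only, where that of all genes was -0.149. The distance between these medians was 0.087 and 0.088. A log2 fold change within 0.25 of 0 was found for 24 of the 32 genes (75.0%) and for 68.8% of all genes.

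The DOX and PBS ranges did not overlap for 8 genes. Of these, 7 were above PBS (Klkb1, F2, Proc, Proz, Serpinc1, Tfpi and Vkorc1), where 7.84% of all genes were, and 1, Pros1, was below, where 9.02% were. This split depended on scaling. With library size only, 0 were above, against 2.56% of all genes, and 3 were below (Pros1, Kng2 and Hrg), against 19.6%.

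**Figure D2:**
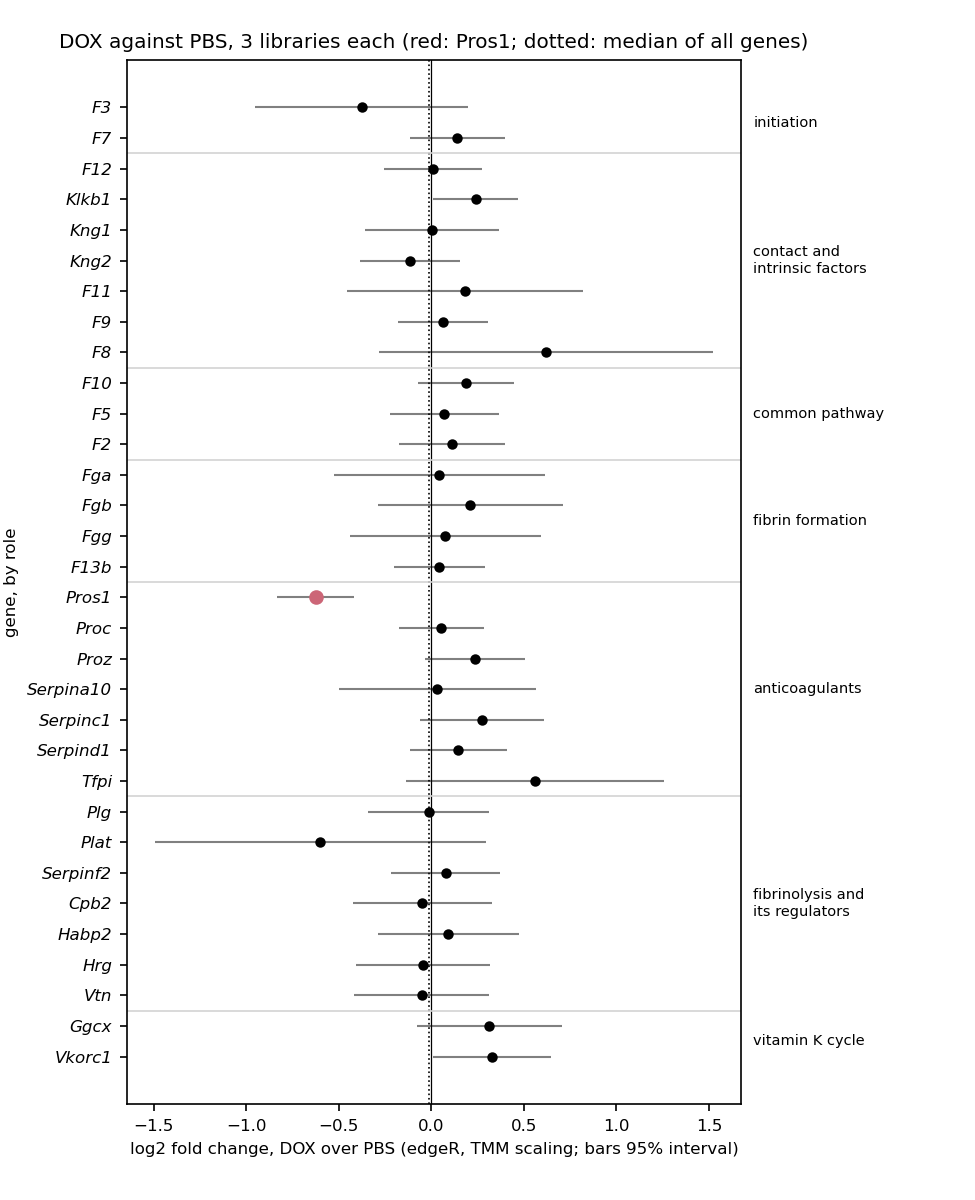
Log2 fold change of DOX over PBS for the 32 genes by role, with 95% intervals from the edgeR fit on 3 libraries a group and a dotted line at the median of all genes tested (-0.015). Pros1, in red, was picked for its low value and stands at -0.63, and the intervals are widest for F8, Plat and Tfpi.

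**Figure D3:**
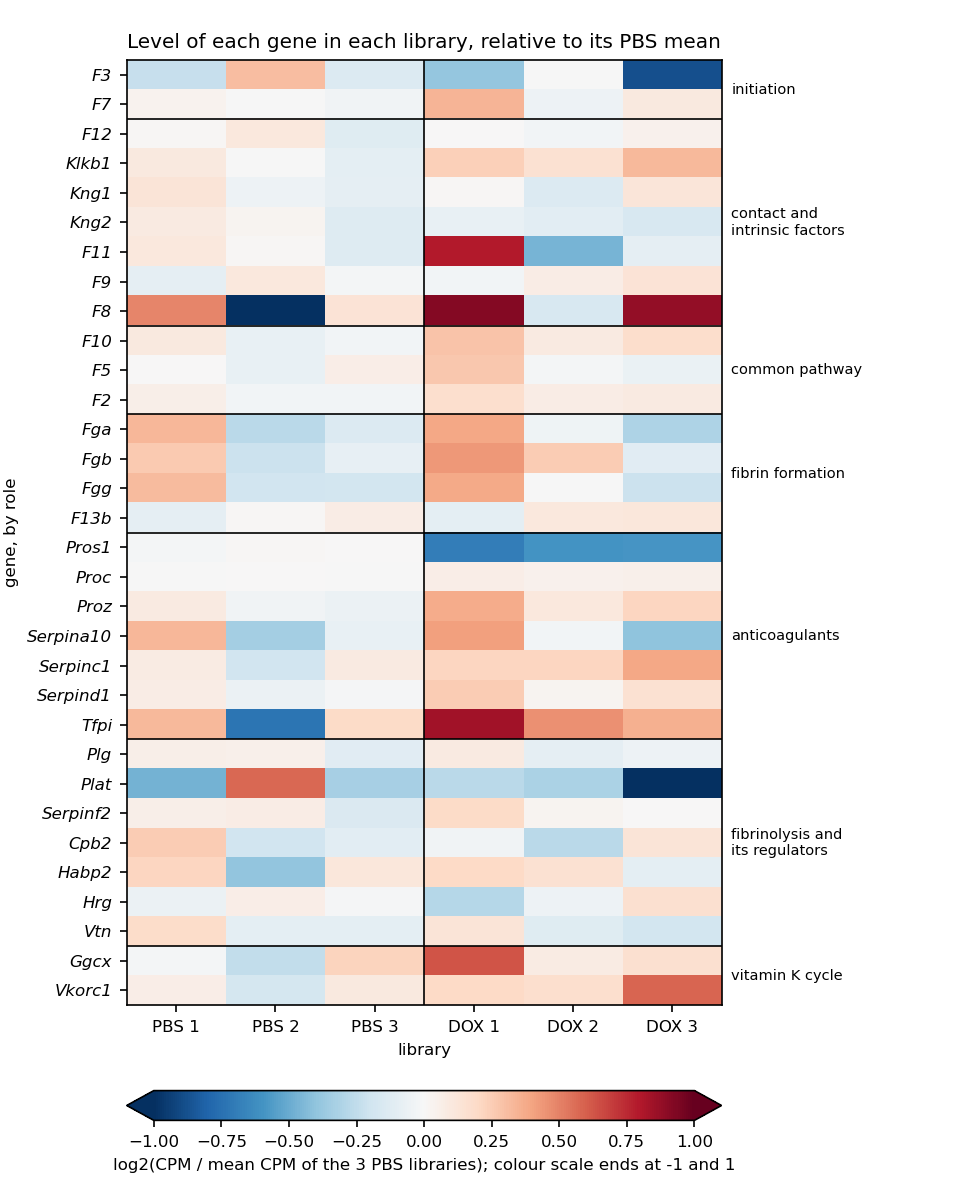
Level of each of the 32 genes in each library as log2 of its CPM over its mean in PBS, with genes in rows by role and libraries in columns. Pros1 is lower in all 3 DOX columns, the fibrinogen rows are high in PBS replicate 1 and DOX replicate 1, and Plat, F8, Tfpi, F11 and F3 have the widest ranges over the 6 libraries.

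Among the genes of initiation, F7 encodes factor VII and F3 encodes tissue factor, its receptor. F7 stood at 69.8, 67.7 and 66.4 CPM in PBS and 86.3, 65.7 and 72.7 CPM in DOX, so that the groups overlapped (log2 fold change 0.14, SE 0.11). F3 was low, with 130 to 264 counts per library, at 5.49, 7.99 and 5.86 CPM in PBS and 4.94, 6.44 and 3.51 CPM in DOX. It was highest in PBS replicate 2 and lowest in DOX replicate 3 (log2 fold change -0.38 with SE 0.25 and adjusted p = 0.644).

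Of the 7 contact and intrinsic factors, 0 passed. Kng1, one of the mouse kininogen genes, had the highest FPKM of this role, 1395 on average, and stood at 4553, 4021 and 3917 CPM in PBS and 4201, 3785 and 4538 CPM in DOX. The groups overlapped throughout (log2 fold change 0.00, SE 0.16). Kng2, its neighbour and close relative, stood at 699.8, 670.1 and 599.0 CPM in PBS and 623.4, 609.0 and 586.0 CPM in DOX (log2 fold change -0.11, SE 0.12). The authors' counting could split reads between Kng1 and Kng2, so each level is uncertain in that respect. F12, the gene of factor XII that starts the contact pathway, stood at a log2 fold change of 0.01 (SE 0.12), and F9, the gene of factor IX, 0.06 (SE 0.11).

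Klkb1, which encodes prekallikrein, stood at 142.0, 132.6 and 124.3 CPM in PBS and 156.5, 147.7 and 166.6 CPM in DOX. All DOX libraries were above all PBS libraries under TMM scaling (log2 fold change 0.24 with SE 0.10 and adjusted p = 0.496). F11, which encodes factor XI and lies beside Klkb1, was at 35.6 CPM in DOX replicate 1 and at 14.9 to 22.2 CPM in the other 5 libraries (log2 fold change 0.18, SE 0.28). That library alone gave F11 its positive value, which was -0.26 without it.

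Of the 3 common pathway genes, 0 passed. F2, the prothrombin gene, had the highest FPKM of the 3, 638.9 on average, and stood at 1591, 1503 and 1502 CPM in PBS and 1716, 1614 and 1633 CPM in DOX. The DOX libraries were all above PBS by a small margin (log2 fold change 0.11 with SE 0.13 and adjusted p = 0.795), and the fold change was -0.02 when scaled by library size only. F10, the gene of factor X, stood at 412.4, 366.1 and 376.9 CPM in PBS and 469.7, 410.0 and 434.8 CPM in DOX (log2 fold change 0.19 with SE 0.11 and adjusted p = 0.614). F5 is described above with protein S.

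The fibrinogen chains were the most abundant of the 32 genes and varied between libraries more than between groups. Together Fga, Fgb and Fgg took 2.95%, 1.92% and 2.18% of all counts in PBS and 2.84%, 2.38% and 1.74% in DOX. Replicate 1 was the highest library of each group. Fga, the alpha chain gene (chromosome 3, 83026076 to 83033627), stood at 10835, 7124 and 7837 CPM in PBS and 11244, 8354 and 6950 CPM in DOX. Fgb, the beta chain gene (chromosome 3, 83040141 to 83049863), stood at 9527, 6847 and 7505 CPM in PBS and 10776, 9500.3 and 7345 CPM in DOX. Fgg, the gamma chain gene (chromosome 3, 83007724 to 83015049), stood at 7238, 5081 and 5102 CPM in PBS and 7534, 5803 and 5014 CPM in DOX. In all 3 genes the groups overlapped widely. Their log2 fold changes were 0.04 (SE 0.25) for Fga, 0.21 (SE 0.22) for Fgb and 0.07 (SE 0.23) for Fgg, with a smallest adjusted p of 0.776. With library size only, Fga stood at -0.09 and Fgg at -0.06.

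The chains assemble in equal numbers in the protein, and their proportions per length varied less than their levels did for Fga against Fgg. The FPKM of Fga over that of Fgg was 0.938, 0.879 and 0.963 in PBS and 0.935, 0.902 and 0.869 in DOX. Fgb stood above both, at 1.63, 1.67 and 1.82 times Fgg in PBS and 1.77, 2.03 and 1.81 times in DOX. Fgb over Fga was 1.74, 1.90 and 1.89 in PBS and 1.89, 2.25 and 2.09 in DOX, the higher mean in DOX. The groups overlapped in all 3 ratios. F13b, which encodes the carrier subunit of the fibrin crosslinking factor XIII, did not share the swings of the chains, with 186.9 to 209.0 CPM in PBS and 186.0 to 215.5 CPM in DOX (log2 fold change 0.04, SE 0.11).

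The order of the 6 libraries in Fga recurred exactly in Fgg and in Serpina10, which was seen only after the values were known. Serpina10, which encodes the protein Z dependent inhibitor of factor Xa, stood at 364.9, 229.6 and 275.3 CPM in PBS and 385.2, 284.7 and 219.1 CPM in DOX. Fibrinogen is also an acute phase protein of the liver, and the acute phase gene Saa1 stood at 730.6, 390.2 and 486.6 CPM in PBS and 510.4, 228.9 and 139.7 CPM in DOX. Within each group replicate 1 was highest here as well, but 9 of the 13 acute phase genes had a negative log2 fold change (median -0.42, with Orm3 called lower at an adjusted p of 0.0143 in edgeR and a log2 fold change of -1.09). Of all 13725 genes tested, 7278 were negative and 0.0291% passed in edgeR. The 3 fibrinogen genes were positive under TMM scaling, and Fga and Fgg negative with library size only. The part of the acute phase in the fibrinogen levels was not tested. Hrg ran the other way, lowest in replicate 1 of each group, at 2109.7 CPM in PBS and 1800.5 CPM in DOX.

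**Figure D4:**
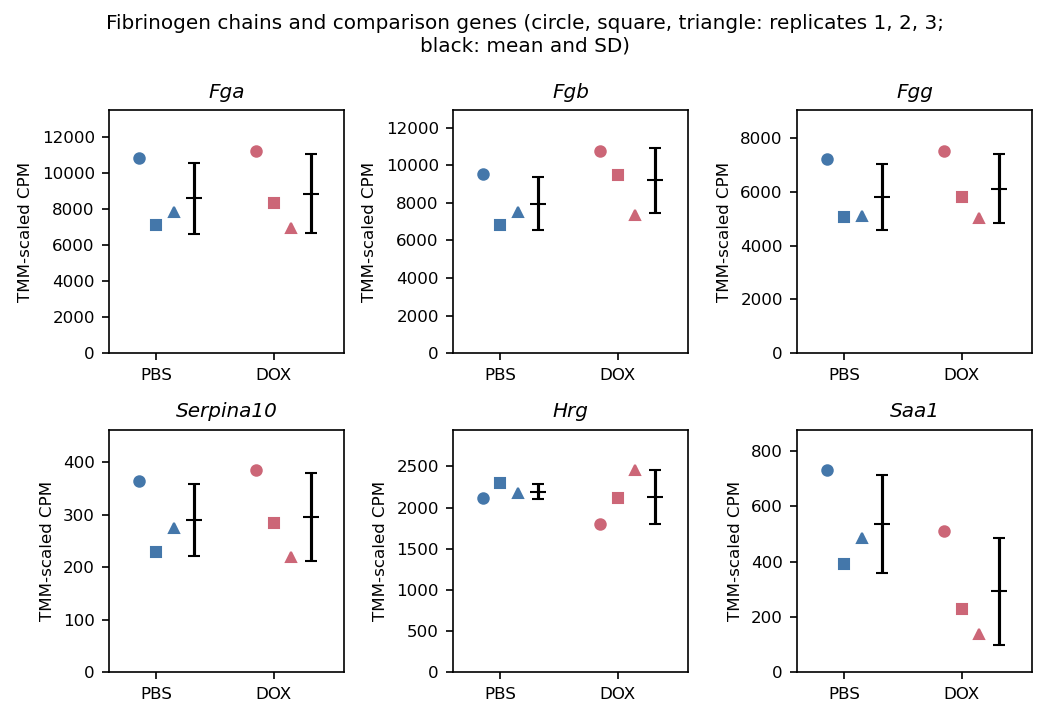
TMM-scaled CPM of the fibrinogen chain genes Fga, Fgb and Fgg, of Serpina10 and Hrg, and of the acute phase gene Saa1 in PBS (blue) and DOX (red), with a circle, square and triangle for replicates 1, 2 and 3 and the mean and SD in black; each axis starts at 0. Replicate 1 is the highest of its group for the chains, Serpina10 and Saa1, and the groups overlap for the 3 chains.

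The other anticoagulants did not share the direction of Pros1. Each of the 6 had a positive log2 fold change under TMM scaling, with a median of 0.19, and 0 of them passed (smallest adjusted p = 0.547). With scaling by library size only, Proc and Serpina10 were negative. Serpinc1, the antithrombin gene, had the highest FPKM of the role, 903.8 on average, and stood at 1816, 1498 and 1827 CPM in PBS and 1993, 1986 and 2237 CPM in DOX. All DOX libraries lay above PBS (log2 fold change 0.27 with SE 0.15 and adjusted p = 0.567).

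Proz, the gene of protein Z, stood at 382.1, 349.7 and 343.6 CPM in PBS and 464.4, 384.8 and 416.7 CPM in DOX, again without overlap (log2 fold change 0.24 with SE 0.12 and adjusted p = 0.547). Serpind1, the heparin cofactor II gene, stood at 406.5, 370.4 and 382.8 CPM in PBS and 461.4, 393.4 and 428.5 CPM in DOX, with overlap (log2 fold change 0.15, SE 0.11). Serpina10, given above, stood at 0.03 (SE 0.23).

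The vitamin K dependent proteins of the list are the products of F2, F7, F9, F10, Pros1, Proc and Proz. Without Pros1, the other 6 had log2 fold changes from 0.05 to 0.24 with a median of 0.13, and 0 passed. F2, F9 and Proc were negative with library size only. F7, F10 and Proz lie next to each other on chromosome 8, with gaps of 1499 and 4238 bases, and had log2 fold changes of 0.14, 0.19 and 0.24. Vkorc1, which encodes the vitamin K epoxide reductase that regenerates the vitamin for the carboxylase, stood at 113.9, 96.3 and 116.9 CPM in PBS and 125.2, 122.3 and 163.3 CPM in DOX. The groups did not overlap under TMM scaling, and DOX replicate 3 was highest (log2 fold change 0.33 with SE 0.14 and adjusted p = 0.497). Ggcx, the carboxylase gene, stood at 28.3, 24.1 and 33.4 CPM in PBS and 44.3, 30.2 and 31.99 CPM in DOX, with overlap (log2 fold change 0.31 with SE 0.17 and adjusted p = 0.573).

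Of the 7 genes of fibrinolysis and its regulators 0 passed, and their median on the log2 scale was -0.05. Vtn, the gene of the adhesive plasma protein vitronectin, had the highest FPKM of the role, 1371 on average. It stood at 2753, 2265 and 2264 CPM in PBS and 2649, 2231 and 2142 CPM in DOX, with replicate 1 highest in each group (log2 fold change -0.05, SE 0.16). Plg, the plasminogen gene, stood at 2495 to 2803 CPM in PBS and 2537 to 2861 CPM in DOX (log2 fold change -0.01, SE 0.14). Serpinf2, the gene of the plasmin inhibitor, stood at 0.08 (SE 0.13). Hrg, the gene of a histidine-rich plasma glycoprotein that binds plasminogen, stood at -0.05 (SE 0.16), and Cpb2, whose product protects fibrin from lysis, also at -0.05 (SE 0.16). Habp2, which encodes a protease that can activate factor VII, stood at 0.09 (SE 0.17).

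Plat, the tissue plasminogen activator gene, was low, with 70 to 273 counts per library. It stood at 3.99, 8.26 and 4.41 CPM in PBS and 4.62, 4.46 and 1.89 CPM in DOX. PBS replicate 2 was the highest and DOX replicate 3 the lowest library (log2 fold change -0.60, SE 0.39, interval -1.50 to 0.30, adjusted p = 0.635).

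None of the 4 genes of lowest level, F8, Tfpi, F3 and Plat, passed. Markers of other liver cells matched them only in part from library to library. F8, the factor VIII gene, which liver endothelial cells express, stood at 6.60, 2.36 and 5.16 CPM in PBS and 8.92, 4.22 and 8.64 CPM in DOX (log2 fold change 0.62 with SE 0.39 and adjusted p = 0.627). Tfpi, the tissue factor pathway inhibitor gene, also of endothelium, stood at 3.02, 1.45 and 2.76 CPM in PBS and 4.32, 3.31 and 3.08 CPM in DOX (log2 fold change 0.56 with SE 0.30 and adjusted p = 0.570). Both were lowest in PBS replicate 2. Of 12 endothelial markers, all tested and none at 0, 11 had a positive log2 fold change. In edgeR 0 of them passed (smallest adjusted p = 0.404). Of all 13725 genes tested, 6447 were positive and 0.0291% passed. The summed level of the 12 endothelial markers was 213, 105 and 215 CPM in PBS and 315, 183 and 286 CPM in DOX. In DOX this sum was lowest in replicate 2, as was F8, while Tfpi was lowest in replicate 3. Of 11 stellate markers, 10 were positive too, with a sum of 352, 244 and 454 CPM in PBS and 505, 437 and 242 CPM in DOX. In edgeR 0 of the stellate markers passed (smallest adjusted p = 0.609).

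F3 and Plat were highest in PBS replicate 2 and lowest in DOX replicate 3. All 12 cholangiocyte markers, none at 0, had a negative log2 fold change. In edgeR 0 of them passed (smallest adjusted p = 0.216). Of all 13725 genes tested, 7278 were negative and 0.0291% passed. The summed level of the 12 cholangiocyte markers was 315, 441 and 290 CPM in PBS and 271, 252 and 138 CPM in DOX. In DOX this sum was highest in replicate 1, as was Plat, while F3 was highest in replicate 2. Without these 2 libraries, a setting added after the data were seen, the log2 fold changes were 0.16 for F8, 0.40 for Tfpi, 0.00 for F3 and 0.11 for Plat, which reverses the sign of Plat. Smaller differences in F3 and Plat follow from that choice, since these libraries were their highest and lowest. Leaving out PBS replicate 2, the lowest library of F8 and Tfpi, lowers the differences of those genes by construction too. Nothing is read from these values. Without PBS replicate 2 alone they were 0.30, 0.31, -0.19 and -0.20. The part of these cells in the 4 genes was not tested. Platelet markers were scarce, with 2 of 8 passing the filter and a summed level of 2.97 to 5.38 CPM in PBS and 3.43 to 5.23 CPM in DOX. Gp9, Gp1bb, Gp1ba and Gp6 were at 0 in at least 1 library.

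**Figure D5:**
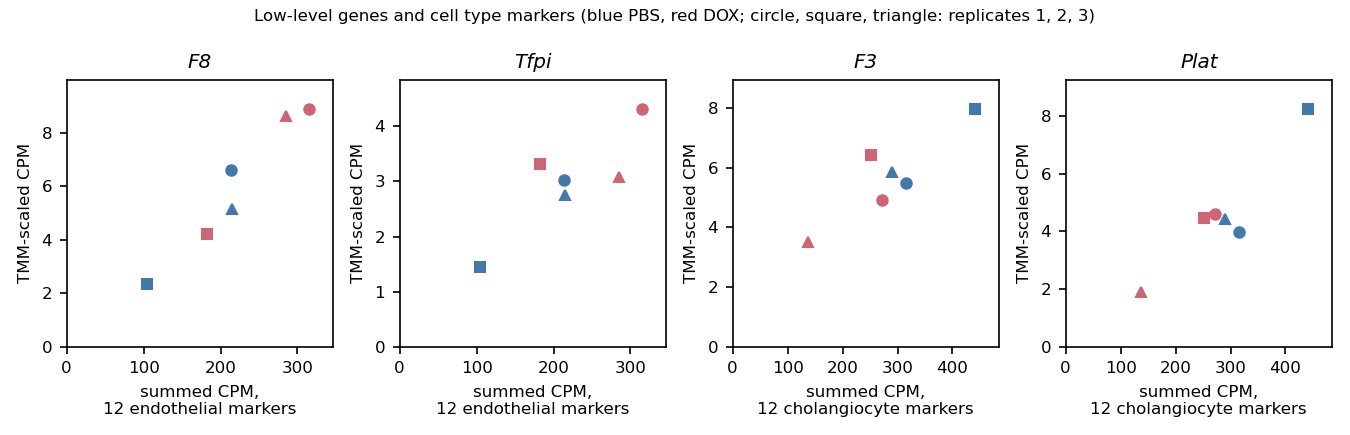
TMM-scaled CPM of F8 and Tfpi against the summed CPM of 12 endothelial markers, and of F3 and Plat against that of 12 cholangiocyte markers, with 1 point per library (blue PBS, red DOX; circle, square and triangle for replicates 1, 2 and 3) and axes from 0. PBS replicate 2 is lowest in both endothelial panels and highest in both cholangiocyte panels, and DOX replicate 3 is lowest in the latter.

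Haemostasis genes outside the 32 included thrombin receptors, protease inhibitors and factors of secretion, and also 7 of the partners of protein S. Of 34, 32 were tested and 0 passed, where 0.0291% of all genes tested did, with 18 positive, 14 negative and a median of 0.03. Tfpi2, a relative of Tfpi, stood at 0.49 on the log2 fold scale (SE 0.15, adjusted p = 0.400), and S100a10, which encodes a plasminogen binding partner of annexin A2, 0.42 (SE 0.18, adjusted p = 0.499).

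Regulators of hepatocyte expression, some of which are known to act on clotting factor genes, were tested for 16 of 17 genes. In edgeR 0 passed (smallest adjusted p = 0.183), where 0.0291% of all genes tested did. Onecut1, the gene of hepatocyte nuclear factor 6, stood at 12.7, 11.05 and 10.5 CPM in PBS and 5.82, 6.38 and 3.67 CPM in DOX. The groups were apart (log2 fold change -1.11 with SE 0.21 and adjusted p = 0.183), as they were, with DOX below PBS, for 9.02% of all genes. DESeq2 called Onecut1 (adjusted p = 0.000375), as it did 1.19% of all genes. Onecut1 was named for the smallest p of its list, so nothing is read from that call. Nr1i2, the gene of the pregnane X receptor, stood at a fold change of 0.32 on the log2 scale (SE 0.10, adjusted p = 0.386).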

How the data were processed

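The authors deposited 2 tables for the same 6 mouse liver libraries, whole-number read counts per gene and FPKM values (the unit FPKM is as the deposited table gives it). Per the labels' protocols, 1.3 ug of total RNA went into library preparation (SMARTER mRNA-Seq). GRCm38 and mm10 are named in the submitters' processing notes. Aligner, counter and strandedness were not given in the sources used here.

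Counts were fitted with edgeR 4.0.16 in R 4.3.3 (filterByExpr, TMM, quasi-likelihood test, DOX against PBS, no block), with Benjamini-Hochberg adjustment over all 13725 genes tested and a threshold of 0.05. Intervals are 95%. The procedure was also run on simulated counts, with larger changes than those fitted for the 32 genes. Its power at their size was not tested. FPKM was used for levels between genes and ratios. Replicates were no repeat deposits, since their counts had a chi-square of 41.9 to 132.2 for each degree of freedom. Alternatives were RLE and library size scaling, DESeq2 1.42.0, limma-voom (limma 3.58.1), other filters, a block for the replicate number, fits without 1 library in turn, and limma on log2 of FPKM plus 1 or 0.1. Leaving out PBS replicate 2 with DOX replicate 3 was added after seeing the data.

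The genes, lists and tests were chosen with earlier results of these data known. Values in every library are given for Pros1, 5 of its partners, the fibrinogen chains, the gene of highest FPKM in each role and up to 8 others of smallest p. From each list of other genes up to 3 of smallest p are named, and some of these are not reported here. Serpina10, F11, Hrg, Saa1 and Orm3 lie outside this rule and were picked after their values were seen. Kng2 lies outside it as well and is given beside Kng1. Gene coordinates are from GENCODE M21, and the motif windows from RefSeq (GRCm38.p6).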

Additional observations from a re-analysis of the deposited data

How the results depend on the processing

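The count of clotting genes called was 0 in the edgeR fit and 1, Pros1, with DESeq2 and without a filter on low counts, where 61 of all 20914 genes were called against 4 of 13725 with the filter and 176 of 14828 with DESeq2. It was 0 in the other 14 settings, among them the leaving out of each library and the replicate block. The median log2 fold change of the 32 genes was 0.072, turned to -0.060 with library size scaling and to -0.064 and -0.065 with limma on log2 of FPKM plus 1 and plus 0.1, and ranged from 0.036 to 0.149 when 1 library was left out. The median of all genes moved as well, from -0.015 to -0.149, -0.086 and -0.138. With the replicate block the median of the 32 genes was 0.069. Deviations of libraries with the same replicate number had correlations of 0.192, 0.130 and 0.00975, and those with unlike numbers -0.183 to 0.0565. With the replicate block 21 of all 13725 genes were called, against 4 without it. The labels give the numbers no meaning, so they were not taken as pairs in the main fit. Whether libraries of the same number share an effect was not tested. Pros1, which was picked on these same counts, and 11 other genes kept their sign in all 16 alternatives. The other 20 genes changed it in at least 1, 12 of them with library size scaling and 12 when 1 library was left out. Depth limits F8, Tfpi, F3 and Plat, which had 48 to 334 counts per library. A fold change of such genes that did not pass was not shown to be absent.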
